A study of Mus musculus with 4 samples.

Results

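The proteasome is the protease that cuts up ubiquitin-tagged proteins in the cytosol and nucleus. Its genes were taken from the expression matrix as all symbols that begin with Psma, Psmb, Psmc, Psmd, Psme, Psmf or Psmg followed by a digit, leaving out the 3 inducible immunoproteasome genes Psmb8, Psmb9 and Psmb10. The rule found 46 of 20325 gene symbols and used no measured value. The RNA came from C3H10T1/2, a mouse line of multipotent mesenchymal cells derived from embryos of the C3H strain, at passages 10 to 15. In 2 libraries (K36M) the cells carried a stable FLAG-HA-tagged H3.3 transgene with the lysine-to-methionine substitution K36M, which is known to inhibit H3K36 methyltransferases, and in the 2 control libraries (WT) the tagged H3.3 was wild type. Both groups thus kept their own histone genes beside a tagged transgene, for which the sources used here name neither the promoter nor whether a line was 1 clone. Whether replicates are separate cultures is not labelled, and each p-value reflects variation among the 4 libraries that could be purely technical.

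The proteasome is built from separable parts. The barrel-shaped 20S core has outer rings of alpha subunits (Psma genes), which gate the entrance, and inner rings of beta subunits (Psmb genes), of which Psmb5, Psmb6 and Psmb7 cut peptide bonds. The 19S particle caps the core: its base holds a ring of ATPases (Psmc1 to Psmc6) that unfold substrates, scaffold subunits (Psmd1, Psmd2) and a ubiquitin receptor (Psmd4), and its lid holds the deubiquitinase Psmd14 within a frame of other Psmd subunits. Dedicated chaperones assemble core and base, and other activators (Psme genes) can dock on the core in place of the 19S particle. In mammals the transcription factor NFE2L1 is known to raise proteasome genes together when proteasome activity falls.

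Levels are given as CPM, for which each library's expected counts were divided by its TMM-scaled size. K36M libraries held 34022137 to 56041798 expected counts and WT libraries 23343297 to 25322433. A gene was called changed at an adjusted p under 0.05 in edgeR's quasi-likelihood test (Benjamini-Hochberg over 13162 genes tested), and every adjusted p below is from that test unless another is named. All 13 mesenchymal markers looked at, among them Col1a1, Vim and Prrx1, were detected, with a summed level of 31037 to 32918 CPM in the K36M libraries and 52035 to 52327 CPM in the WT libraries. Of the 13, 7 were called lower and 4 higher in K36M (84.6% called, against 75.6% of all genes tested). Fn1 had the largest fall (6095 and 5808 CPM in K36M, 17736 and 18474 CPM in WT). Thy1 had the largest rise (35.7 and 35.2 CPM in K36M, 3.51 and 2.82 CPM in WT). Markers of other cell types also differed in their summed level: blood and macrophage (10 genes, 40.4 to 41.7 CPM in K36M and 7.02 to 7.77 CPM in WT, and without the globin gene Hba-a1 15.0 to 15.1 CPM in K36M and 6.94 to 7.51 CPM in WT, with Hbb-b1 and Cd3e at 0 in every library), epithelium (7 genes, 25.1 to 26.5 CPM in K36M and 11.2 to 12.5 CPM in WT, with Epcam at 0), endothelium (6 genes, 16.7 to 18.5 CPM in K36M and 38.0 to 39.6 CPM in WT, and without Tek 12.1 to 13.6 CPM in K36M and 10.7 to 10.8 CPM in WT) and neural and glia (5 genes, 25.5 to 26.2 CPM in K36M and 14.6 to 15.3 CPM in WT, with Olig2 at 0). Of 4 epithelial markers tested 3 were called higher and 1 lower in K36M. Cdh1 made up most of their K36M sum (22.3 and 24.1 CPM, against 5.89 and 5.56 CPM in WT). Krt14 fell to 0.770 and 0.712 CPM in K36M, against 5.95 and 5.25 CPM in WT. Tubb3 made up most of the neural and glia sum (25.6 and 24.7 CPM in K36M, 13.4 and 12.8 CPM in WT). Gfap fell to 0.375 and 0.691 CPM in K36M, against 1.73 and 1.56 CPM in WT. The part of these markers in the results was not tested. In bulk RNA fewer cells of a type and less RNA per cell cannot be told apart.

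Proteasome genes differed between K36M and WT cells by small amounts and in both directions. Of the 46 genes, 45 passed the low-count filter. One of these, Psmc3ip, matches the rule by its name and is no subunit, which leaves 44 tested proteasome genes. Of the 44, 20 were higher and 11 lower in K36M cells and 13 were not called. Over all 13162 genes tested, 75.6% were called, 38.5% higher and 37.1% lower, so the share of proteasome genes called (70.5%) was near that background and the share called higher (45.5%) was somewhat above its background. Under the authors' scaling factors 16 of the 44 were higher and 16 lower, with 4360 higher and 5709 lower among all genes tested. Higher and lower calls among proteasome genes were thus equal in number under that scaling. Over all genes tested, lower calls outnumbered higher ones there (43.3% of calls were higher). Every proteasome gene tested stayed under 1.5-fold in either direction, a size that 34.8% of all genes tested reached. Psmb11 passed that size under the authors' factors (log2 fold change -0.60), without K36M replicate 2 (-0.63) and with thinned counts (-0.63). The highest log2 fold change was 0.52, for Psmd11, and the lowest -0.52, for Psmb11. Among the 31 core, base and lid subunits the log2 fold changes had an SD of 0.21 between genes, while the log2 difference between the 2 libraries of a group had an SD of 0.0519 over the same genes. Over all genes tested these SDs were 1.60 and 0.289. Both K36M libraries lay above both WT libraries for 22 of the 44 genes and below them for 14, against 44.0% and 43.1% of all genes tested.

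**Figure D1:**
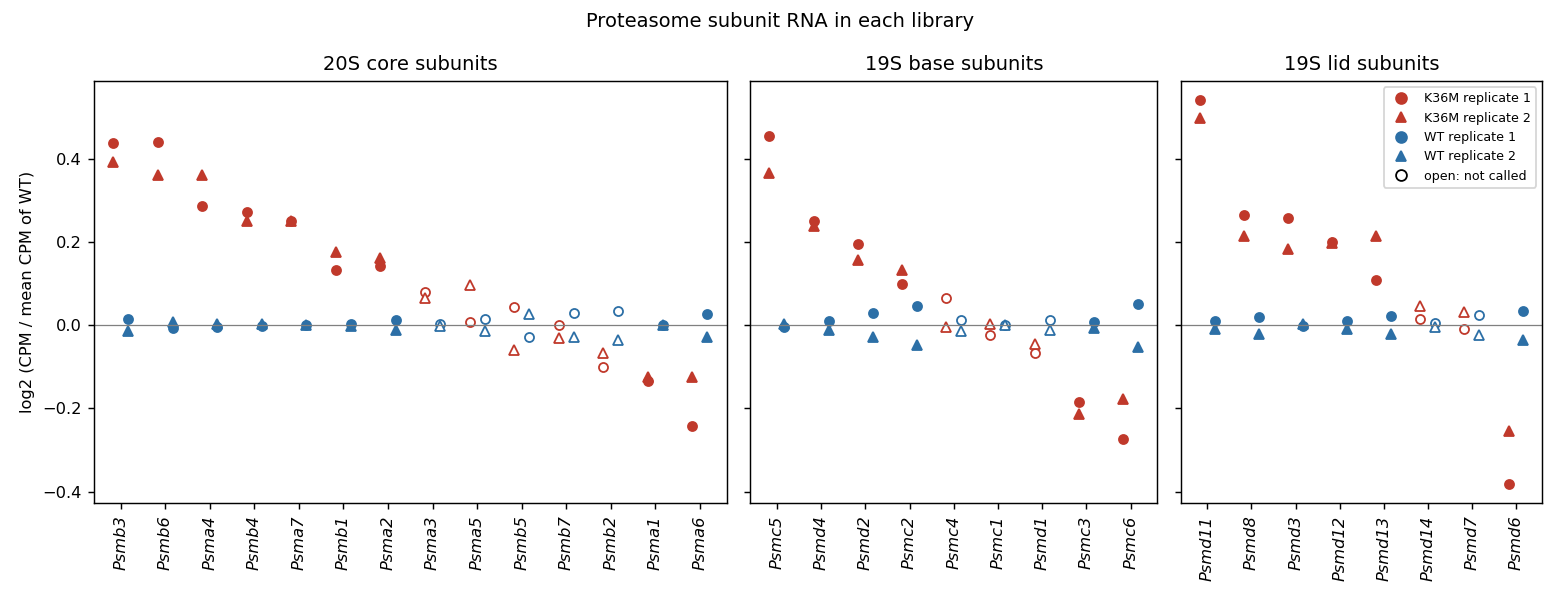
Level of each core, base and lid subunit in each library, as log2 of CPM over the mean CPM of WT; red points are K36M and blue points WT, and open points mark genes not called. K36M points run from well above the line (Psmb3, Psmc5, Psmd11) through it (Psmb5, Psmc1, Psmd7) to below it (Psma6, Psmc6, Psmd6) within each part of the proteasome.

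Of the 14 constitutive core subunits 7 rose, 2 fell and 5 were not called (64.3% called, against 75.6% of all genes tested), with a median log2 fold change of 0.11, against 0.0035 over all genes tested. Under the authors' factors 5 core genes were higher and 4 lower, with a median of 0.0257. The summed level of the core was 1770 and 1780 CPM in the K36M libraries and 1633 and 1618 CPM in the WT libraries, so the K36M libraries stood 9.19% higher. Class sums were taken under TMM scaling only. The authors' factors shifted the log2 fold changes of all genes tested by a median of -0.0862. The beta ring held 4 genes that rose and 0 that fell, and the alpha ring 3 that rose and 2 that fell. Under the authors' factors the beta ring held 3 higher and 2 lower genes and the alpha ring 2 and 2, and no test of the difference between rings was made.

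Among the 3 catalytic subunits Psmb6 alone rose. Psmb6, the caspase-like subunit, stood at 101 and 95.4 CPM in the K36M libraries, against 73.9 and 74.7 CPM in the WT libraries, 1.32-fold higher (log2 fold change 0.40 ± 0.0461 SE, adjusted p = 2.78e-07). Both K36M libraries lay above both WT libraries by more than the replicates differed. Psmb5, the chymotrypsin-like subunit and the main target of proteasome inhibitor drugs, stood at 121 and 113 CPM in the K36M libraries, against 116 and 120.0 CPM in the WT libraries, and the groups overlapped (log2 fold change -0.00441 ± 0.0458 SE, adjusted p = 0.936). Psmb7, the trypsin-like subunit, stood at 136 and 134 CPM in the K36M libraries, against 139 and 134 CPM in the WT libraries, and the groups overlapped here too (log2 fold change -0.0144 ± 0.0417 SE, adjusted p = 0.765). The sign of Psmb5 and of Psmb7 depended on the scaling of the libraries, and under the authors' factors Psmb7 was called lower (adjusted p = 0.0365).

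The other beta subunits give the inner rings their shape without cutting peptide bonds themselves. Psmb3 had the largest rise in the core, with 125 and 122 CPM in the K36M libraries, against 93.5 and 91.6 CPM in the WT libraries, 1.34-fold higher (log2 fold change 0.42 ± 0.0431 SE, adjusted p = 7.09e-08). Psmb4 rose by 0.26 on the log2 scale (adjusted p = 1.36e-05) and Psmb1 by 0.15 (adjusted p = 0.00141), and Psmb1 was not past the threshold under the authors' scaling factors (adjusted p = 0.126). Psmb2 stood at 72.0 and 73.7 CPM in the K36M libraries, against 79.1 and 75.4 CPM in the WT libraries, and was not called (log2 fold change -0.0854 ± 0.0463 SE, adjusted p = 0.103), although both K36M libraries lay below both WT libraries. Under the authors' factors it was called lower (adjusted p = 0.00262).

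Alpha subunits form the outer rings, on which the 19S particle docks. Psma4 rose most among them, with 166 and 175 CPM in the K36M libraries, against 136 and 136 CPM in the WT libraries (log2 fold change 0.32 ± 0.0414 SE, adjusted p = 1.17e-06). Psma7 stood at 141 and 141 CPM in the K36M libraries, against 119 and 118 CPM in the WT libraries, 1.19-fold higher (adjusted p = 2e-05). Replicates of Psma7 were nearly equal in each group. Psma2 was 1.11-fold higher (adjusted p = 0.00261), but missed the threshold when the fit left out WT replicate 2 (adjusted p = 0.0746) or under the authors' factors (0.164). Psma6 had the largest fall in the core, with 110.2 and 119.5 CPM in the K36M libraries, against 133 and 128 CPM in the WT libraries, 1.14-fold lower (log2 fold change -0.18 ± 0.0465 SE, adjusted p = 0.00155). Psma1 was 1.09-fold lower (adjusted p = 0.0109) and lost its call without WT replicate 1 (adjusted p = 0.0679), without WT replicate 2 (0.0716), under total counts (0.107) and under upper quartile scaling (0.0716). Psma3 stood at 141 and 139.7 CPM in the K36M libraries, against 134 and 133 CPM in the WT libraries, and Psma5 at 83.8 and 89.0 CPM in the K36M libraries, against 84.2 and 82.5 CPM in the WT libraries. Neither was called (adjusted p = 0.111 for Psma3 and 0.339 for Psma5), and Psma3 was past the threshold under total counts (0.0105), upper quartile scaling (0.0172) and a minimum mean of 5 CPM (0.0397).

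A pair of core genes with tissue-restricted expression were counted apart. Psma8, the alpha subunit of sperm-forming cells, had 0 counts in every library, where 3 counts would be 0.0528 to 0.0863 CPM in the K36M libraries and 0.121 to 0.13 CPM in the WT libraries. Psmb11, the catalytic subunit of the thymus cortex, stood at 2.05 and 2.48 CPM in the K36M libraries, against 3.19 and 3.19 CPM in the WT libraries, from 116 and 86.1 expected counts in K36M and 79.1 and 73.4 in WT. It was 1.43-fold lower (log2 fold change -0.52 ± 0.165 SE, adjusted p = 0.00866), but not past the threshold without K36M replicate 1 (adjusted p = 0.116) or with the DESeq2 Wald test (0.101).

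Base genes moved in both directions. Of 9 base subunits 4 rose, 2 fell and 3 were not called (66.7% called, against 75.6% of all genes tested). Their median log2 fold change was 0.0332. Under the authors' factors 3 were higher and 4 lower, with a median of -0.0529. Their summed level was 1662 and 1651 CPM in the K36M libraries and 1616 and 1572 CPM in the WT libraries, a difference of 3.88% under TMM scaling. Of the 6 ATPases, which turn together as 1 ring, 2 rose, 2 fell and 2 were not called, while 1 was higher and 3 lower under the authors' factors and 1 was higher and 2 lower without WT replicate 2. Under TMM scaling their sum differed by 0.17%, with 823 ± 1.36 CPM in K36M and 821 ± 15.7 CPM in WT (SD, n = 2 libraries each), less than the spread between the WT libraries. Their median log2 fold change was 0.0111, but -0.0748 under the authors' factors, under which the sum was not taken.

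The ATPase gene Psmc5 had the largest rise in the base, with 148 and 139 CPM in the K36M libraries, against 107 and 108 CPM in the WT libraries, 1.33-fold higher (log2 fold change 0.41 ± 0.0439 SE, adjusted p = 1.1e-07). Its ring partner Psmc6 had the largest fall, with 117 and 125 CPM in the K36M libraries, against 147 and 136 CPM in the WT libraries, 1.17-fold lower (log2 fold change -0.23 ± 0.0468 SE, adjusted p = 0.000265). Both K36M libraries lay above both WT libraries for Psmc5 and below both for Psmc6. Psmc3 fell to 175 and 172 CPM in the K36M libraries, against 200.0 and 198 CPM in the WT libraries (adjusted p = 0.000128). Psmc2 was 1.08-fold higher (adjusted p = 0.0215), but missed the threshold when the fit left out WT replicate 2 (adjusted p = 0.393) or under the authors' factors (0.546). Psmc1 (159 and 162 CPM in the K36M libraries, against 162 and 162 CPM in the WT libraries) and Psmc4 (78.5 and 74.7 CPM in the K36M libraries, against 75.7 and 74.3 CPM in the WT libraries) overlapped between groups and were not called (adjusted p = 0.808 for Psmc1 and 0.528 for Psmc4). Under the authors' factors Psmc1 was called lower (0.0356).

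Of the other base subunits, the ubiquitin receptor Psmd4 stood at 114 and 113 CPM in the K36M libraries, against 96.7 and 95.2 CPM in the WT libraries, 1.18-fold higher (log2 fold change 0.24 ± 0.0424 SE, adjusted p = 4.41e-05). The scaffold gene Psmd2 rose to 468 and 456 CPM in the K36M libraries, against 417 and 401 CPM in the WT libraries (adjusted p = 0.000258). The second scaffold gene, Psmd1, stood at 255 and 259 CPM in the K36M libraries, against 269.8 and 266 CPM in the WT libraries, and was not called (adjusted p = 0.162), though its K36M libraries lay below its WT libraries. It was called lower under the authors' factors (adjusted p = 0.00172).

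Among the 31 core, base and lid genes matched by the rule, the lid held the largest rise and the largest fall. Shfm1, a lid subunit that the rule does not match, had a larger fall (log2 fold change -0.39) and is given below. Of the rule's 8 lid subunits 5 rose, 1 fell and 2 were not called (75% called, against 75.6% of all genes tested). Their median log2 fold change was 0.18. Under the authors' factors 4 were higher and 1 lower, with a median of 0.0931. Their summed level was 971 and 974 CPM in the K36M libraries and 898 and 880.4 CPM in the WT libraries, a difference of 9.39% under TMM scaling. Psmd11, a lid subunit that contacts the core and is known to stabilise the particle, stood at 87.1 and 84.6 CPM in the K36M libraries, against 60.3 and 59.5 CPM in the WT libraries, 1.43-fold higher (log2 fold change 0.52 ± 0.0461 SE, adjusted p = 8.17e-09). Psmd6, a structural subunit of the lid, stood at 74.0 and 80.8 CPM in the K36M libraries, against 98.7 and 94.1 CPM in the WT libraries, 1.25-fold lower (log2 fold change -0.32 ± 0.0499 SE, adjusted p = 1.3e-05). The groups did not overlap for either gene.

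The lid subunits matched by the rule belong to 2 families, named for their PCI and MPN domains. All 6 PCI subunits were called, against 75.6% of all genes tested, with Psmd11 and 4 others higher and Psmd6 lower. The 4 others were Psmd8 (1.18-fold higher, adjusted p = 4.91e-05), Psmd3 (1.17-fold higher, adjusted p = 6.64e-05), Psmd12 (1.15-fold higher, adjusted p = 0.000341) and Psmd13 (1.12-fold higher, adjusted p = 0.00593). Psmd13 missed the threshold when the fit left out WT replicate 2 (adjusted p = 0.0989) or under the authors' factors (0.179). Neither of the 2 MPN subunits was called, and no test of the difference between families was made. Psmd14, the deubiquitinase that strips ubiquitin chains from substrates, stood at 108 and 111 CPM in the K36M libraries, against 107 and 107 CPM in the WT libraries (log2 fold change 0.0303 ± 0.0422 SE, adjusted p = 0.526). Its inactive partner Psmd7 stood at 163 and 167 CPM in the K36M libraries, against 166 and 161 CPM in the WT libraries (log2 fold change 0.0113 ± 0.0399 SE, adjusted p = 0.808). The K36M libraries of Psmd14 lay just above its WT libraries, and those of Psmd7 overlapped with them.

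RefSeq promoter windows, 250 bases before to 50 after a transcription start on GRCm38.p6, were matched by symbol to 38 of the 46 genes; Psmb1, Psmb2, Psmb7, Psma8, Psmc3, Psmd3, Psmd7 and Psmg2 were not matched. The windows of the genes with the largest rise and fall among the rule's constitutive core genes and among its lid genes are shown. These genes mark both ends of the response in each class. Capitals mark the letters CCGGAAG, the core of a site for ETS transcription factors, on either strand. Of the pair of Psma6 starts, only the window that holds such letters is shown, and the other window holds 0 of them.
Psmb3 (largest rise in the core, chr11:97703184-97703483, plus strand): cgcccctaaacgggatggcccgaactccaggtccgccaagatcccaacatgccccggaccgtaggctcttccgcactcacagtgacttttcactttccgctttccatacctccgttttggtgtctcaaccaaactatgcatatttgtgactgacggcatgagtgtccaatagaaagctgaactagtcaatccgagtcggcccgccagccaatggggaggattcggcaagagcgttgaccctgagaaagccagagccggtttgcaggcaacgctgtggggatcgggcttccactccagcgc
Psma6 (largest fall in the core, chr12:55398575-55398874, plus strand): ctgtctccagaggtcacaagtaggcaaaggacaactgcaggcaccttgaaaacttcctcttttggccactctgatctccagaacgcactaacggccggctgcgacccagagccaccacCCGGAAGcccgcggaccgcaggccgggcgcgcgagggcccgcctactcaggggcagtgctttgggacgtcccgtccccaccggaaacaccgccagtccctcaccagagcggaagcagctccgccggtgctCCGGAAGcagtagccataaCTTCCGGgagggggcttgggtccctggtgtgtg
Psmd11 (largest rise in the lid, chr11:80428365-80428664, plus strand): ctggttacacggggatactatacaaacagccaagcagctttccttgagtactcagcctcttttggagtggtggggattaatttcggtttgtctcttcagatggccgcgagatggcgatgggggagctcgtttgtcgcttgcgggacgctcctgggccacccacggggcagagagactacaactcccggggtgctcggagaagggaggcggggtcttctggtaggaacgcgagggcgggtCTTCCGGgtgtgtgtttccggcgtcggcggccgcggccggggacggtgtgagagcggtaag
Psmd6 (largest fall in the lid, chr14:14120896-14121195, minus strand): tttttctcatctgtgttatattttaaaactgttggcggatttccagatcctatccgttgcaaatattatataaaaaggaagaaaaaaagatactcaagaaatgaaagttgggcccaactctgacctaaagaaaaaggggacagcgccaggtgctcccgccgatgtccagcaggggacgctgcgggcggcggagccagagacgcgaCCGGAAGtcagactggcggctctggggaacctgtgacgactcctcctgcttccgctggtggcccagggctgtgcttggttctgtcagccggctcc

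The ETS letters stood 3 times in the Psma6 window shown, 1 time each in those of Psmd11 and Psmd6, which changed in opposite directions, and not in that of Psmb3. They were found in 14 of the 37 proteasome genes with a window (37.8%, Psmc3ip left out), in 18.8% of the 9315 tested genes with a window and in 8.86% of all 32851 windows. Genes with these letters numbered 7 of 17 that rose, 6 of 10 that fell and 1 of 10 not called. The same split was not made over all tested genes, so no link between letters and calls can be read from it. The antioxidant response element core TGACNNNGC, to which NFE2L1 with its small Maf partners is known to bind, was found in 6 of the 37 (16.2%, against 17.1% of tested genes with a window and 12.4% of all windows): Psmb5, Psmb6, Psmc6, Psmd12, Psmd9 and Psme4. The CCAAT box was found in 13 (35.1%, against 43.3% and 37.4%) and the GC box GGGCGG in 22 (59.5%, against 67.8% and 35.7%). All letters were searched on both strands, and letters of different motifs overlapped in 2 of 41 windows of the rule's genes. These matches describe the windows and show no binding.

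Chaperones that assemble the proteasome changed in both directions. Of 7 genes 2 rose, 3 fell and 2 were not called (71.4% called, against 75.6% of all genes tested). Their median log2 fold change was -0.10. Their summed level was 190.1 and 193 CPM in the K36M libraries and 189 and 184 CPM in the WT libraries. Psmg2 had the largest rise, with 32.3 and 33.2 CPM in the K36M libraries, against 25.1 and 23.2 CPM in the WT libraries, 1.35-fold higher (log2 fold change 0.44 ± 0.0593 SE, adjusted p = 2.52e-06). Psmg1, whose protein pairs with that of Psmg2 to build the alpha ring, fell to 22.8 and 23.2 CPM in the K36M libraries, against 26.4 and 27.6 CPM in the WT libraries (adjusted p = 0.00212). The partners of 1 chaperone dimer thus changed in opposite directions, with no overlap between groups in either. Such separation was common: both K36M libraries lay above both WT libraries for 44.0% of all genes tested and below them for 43.1%. Psmg3 and Psmg4 encode a second such dimer. Psmg3 was 1.17-fold lower (adjusted p = 0.0360), but missed the threshold when the fit left out WT replicate 1 (adjusted p = 0.114), without K36M replicate 1 (0.412), with the DESeq2 Wald test (0.166), with thinned counts (0.0694), under total counts (0.0959), under upper quartile scaling (0.0807) or at a minimum mean of 5 CPM (0.0541). Psmg4 stood at 16.4 and 16.8 CPM in the K36M libraries, against 17.5 and 16.5 CPM in the WT libraries, and was not called (adjusted p = 0.672).

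Base assembly uses Psmd5, Psmd9 and Psmd10. Psmd5 rose to 58.9 and 59.4 CPM in the K36M libraries, against 50.4 and 49.7 CPM in the WT libraries (log2 fold change 0.24 ± 0.0465 SE, adjusted p = 0.000145). Psmd9 had the largest fall of the chaperones, with 20.2 and 21.2 CPM in the K36M libraries, against 25.4 and 24.9 CPM in the WT libraries, 1.22-fold lower (log2 fold change -0.28 ± 0.0647 SE, adjusted p = 0.000654). Psmd10, also called gankyrin and known as an oncoprotein in liver cancer, stood at 29.6 and 27.1 CPM in the K36M libraries, against 31.1 and 29.9 CPM in the WT libraries, and was not called (adjusted p = 0.144). Psmd10 was called lower without K36M replicate 1 (adjusted p = 0.0189) and under the authors' factors (0.00794).

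Alternative caps of the core and an inhibitor were divided. Of the 5 genes 2 rose, 2 fell and 1 was not called (80% called, against 75.6% of all genes tested). Their median log2 fold change was 0.0535, but -0.0322 under the authors' factors and -0.0162 without WT replicate 2. Psme1 and Psme2 encode the mixed ring known to respond to interferon gamma. Psme1 stood at 42.2 and 45.1 CPM in the K36M libraries, against 37.6 and 35.8 CPM in the WT libraries, 1.19-fold higher (log2 fold change 0.25 ± 0.0535 SE, adjusted p = 0.000441). Psme2 stood at 67.4 and 71.2 CPM in the K36M libraries, against 69.6 and 63.6 CPM in the WT libraries, and was not called (log2 fold change 0.0535 ± 0.0520 SE, adjusted p = 0.361). The groups overlapped for Psme2 and not for Psme1. Psme3, the activator found in the nucleus, had the largest rise of the 5, with 132 and 124 CPM in the K36M libraries, against 109 and 106 CPM in the WT libraries, 1.19-fold higher (adjusted p = 5.03e-05). Psme4, a large single-chain activator known to act on acetylated histones, had the largest fall, with 116 and 123 CPM in the K36M libraries, against 141 and 140.5 CPM in the WT libraries, 1.17-fold lower (adjusted p = 8.71e-05). Psmf1, the proteasome inhibitor also called PI31, was 1.14-fold lower, with 32.7 and 29.7 CPM in the K36M libraries, against 36.5 and 34.6 CPM in the WT libraries (adjusted p = 0.00908), but missed the threshold when the fit left out WT replicate 1 (adjusted p = 0.0972) or with the DESeq2 Wald test (0.0638).

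**Figure D2:**
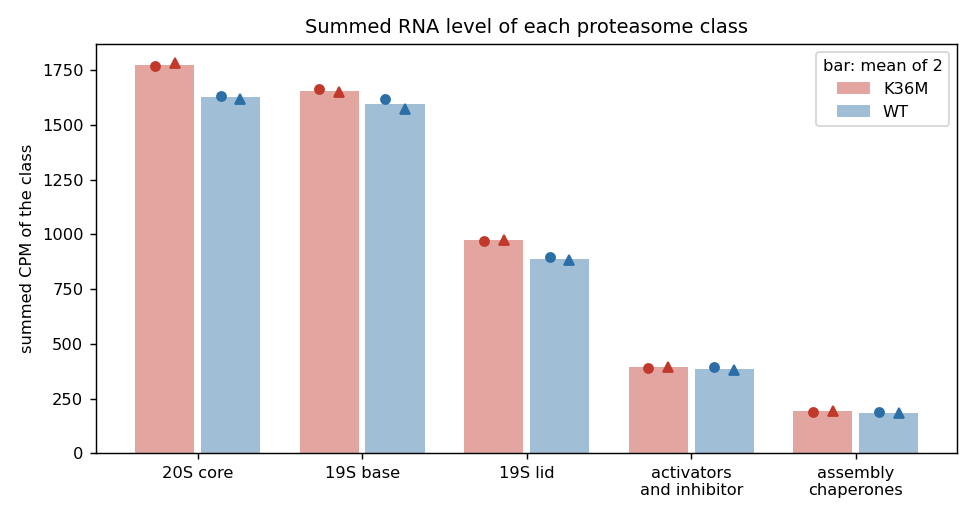
Summed CPM of each proteasome class, with bars at the mean of 2 libraries, points at single libraries, K36M in red and WT in blue. The core and lid sums of both K36M libraries lie above those of both WT libraries, by 9.19% and 9.39% on average, and the activator sums overlap. The sums use TMM scaling only. The authors' factors shifted the log2 fold changes of all genes tested by a median of -0.0862.

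Psmc3ip, the remaining match of the rule, encodes a partner of the meiotic recombinases. It stood at 8.75 and 9.93 CPM in the K36M libraries, against 6.13 and 7.26 CPM in the WT libraries, 1.39-fold higher (log2 fold change 0.47 ± 0.111 SE, adjusted p = 0.000866), and is in no count of proteasome genes here.

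Of the immunoproteasome genes, which the rule leaves out, Psmb9 and Psmb8 rose by more than any gene inside it and Psmb10 was not called. They encode catalytic subunits that replace the constitutive ones, mostly after interferon gamma. Psmb9, which takes the place of Psmb6, stood at 5.87 and 5.73 CPM in the K36M libraries, against 1.25 and 1.13 CPM in the WT libraries, 4.87-fold higher (log2 fold change 2.28 ± 0.162 SE, adjusted p = 3.3e-10). Psmb8, which takes the place of Psmb5, stood at 2.11 and 1.93 CPM in the K36M libraries, against 0.444 and 0.347 CPM in the WT libraries, 5.09-fold higher (log2 fold change 2.35 ± 0.277 SE, adjusted p = 4.27e-07). Both levels were low, with 120 and 67 expected counts of Psmb8 in K36M and 11 and 8 in WT. Psmb10, which takes the place of Psmb7, stood at 8.13 and 8.04 CPM in the K36M libraries, against 8.39 and 8.99 CPM in the WT libraries, and was not called (log2 fold change -0.10 ± 0.0965 SE, adjusted p = 0.356).

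Per length of transcript, the level of Psmb9 was 3.44% and 3.54% of that of Psmb6 in the K36M libraries, against 0.999% and 0.892% in the WT libraries. The level of Psmb8 was 0.96% and 0.942% of that of Psmb5 in the K36M libraries, against 0.212% and 0.16% in the WT libraries. For Psmb10 over Psmb7 the ratio per length was 5.27% and 5.33% in the K36M libraries and 5.33% and 5.95% in the WT libraries. The constitutive gene had the higher level of each pair in every library. Macrophage and blood markers, given above, also had a higher sum in the K36M libraries with or without Hba-a1. Most of the sum without Hba-a1 came from Cd14 (6.09 and 6.50 CPM in K36M, 3.67 and 4.34 CPM in WT) and Lyz2 (6.41 and 6.25 CPM in K36M, 1.89 and 1.64 CPM in WT). Ptprc stood at 0.141 and 0.201 CPM in K36M and at 0 in WT. Csf1r stood at 0.510 and 0.461 CPM in K36M and 0.282 and 0.0869 CPM in WT. The part of these markers in the Psmb8 and Psmb9 rise was not tested.

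**Figure D3:**
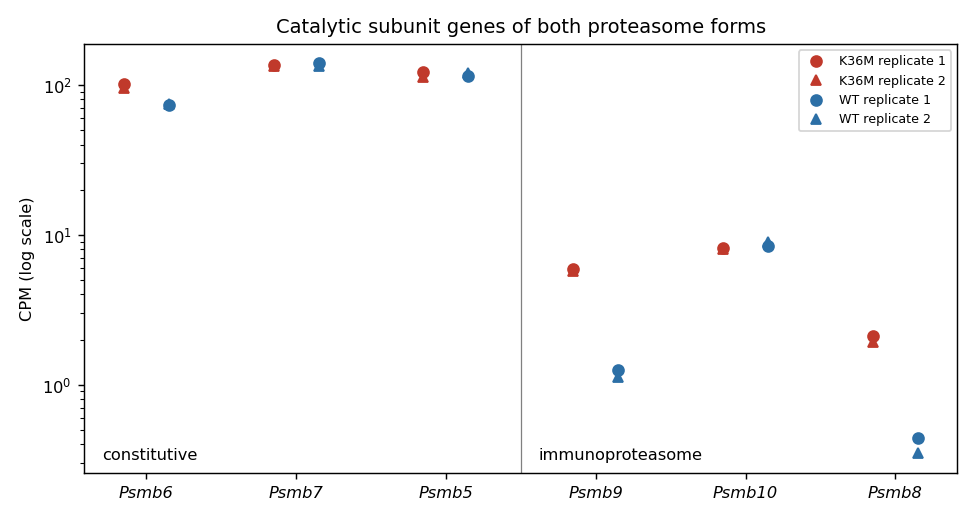
CPM on a log axis for the constitutive catalytic genes (Psmb6, Psmb7, Psmb5) and their immunoproteasome counterparts (Psmb9, Psmb10, Psmb8), with 2 K36M libraries in red left of 2 WT libraries in blue. Psmb9 and Psmb8 lie 4.87-fold and 5.09-fold higher in K36M and below the constitutive genes in every library.

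Genes around the proteasome were called in 69.0% of cases, against 75.6% of all genes tested. Of 42 such genes, the immunoproteasome included, 21 rose, 8 fell and 13 were not called (50% higher, against 38.5% of all genes tested), with a median log2 fold change of 0.12. Nfe2l1, the factor that raises proteasome genes, stood at 550.0 and 545 CPM in the K36M libraries, against 401 and 408 CPM in the WT libraries, 1.35-fold higher (log2 fold change 0.44 ± 0.0347 SE, adjusted p = 1.79e-09). Of its list of 8 genes 4 rose and 2 fell (75% called). Maff, which encodes a small Maf partner, had the largest change there, with 9.52 and 9.15 CPM in the K36M libraries, against 3.11 and 2.26 CPM in the WT libraries, 3.47-fold higher (adjusted p = 6.43e-10). A second small Maf gene, Mafg, was 1.73-fold higher (adjusted p = 1.1e-10). The third, Mafk, stood at 29.9 and 26.6 CPM in the K36M libraries, against 29.5 and 28.2 CPM in the WT libraries, where the groups overlapped, and was not called (adjusted p = 0.762). Ngly1, the enzyme that removes sugars from NFE2L1 and is known to be needed for its activity, fell to 28.6 and 31.0 CPM in the K36M libraries, against 42.7 and 43.0 CPM in the WT libraries (log2 fold change -0.53 ± 0.0542 SE, adjusted p = 6.05e-08).

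Subunits and partners outside the naming rule were mixed, 4 of 10 higher and 2 lower, against 3 higher and 5 lower under the authors' factors. The share called was 60%, against 75.6% of all genes tested. Their median log2 fold change was -0.0062, and -0.0076 without K36M replicate 2. Usp14, a deubiquitinase that docks on the base, had the largest change, with 141 and 143 CPM in the K36M libraries, against 92.8 and 98.4 CPM in the WT libraries, 1.48-fold higher (log2 fold change 0.57 ± 0.0439 SE, adjusted p = 1.2e-09). Shfm1, which encodes the smallest lid subunit, was 1.31-fold lower, with 101 and 109 CPM in the K36M libraries, against 141 and 134 CPM in the WT libraries (adjusted p = 4.02e-07). Adrm1, a ubiquitin receptor of the base, stood at 92.4 and 87.7 CPM in the K36M libraries, against 95.8 and 94.8 CPM in the WT libraries, and was not called (adjusted p = 0.118), and neither was Pomp, which matures the core, at 61.6 and 64.9 CPM in the K36M libraries, against 68.0 and 66.0 CPM in the WT libraries (adjusted p = 0.114). Adrm1 was called lower without K36M replicate 1 (adjusted p = 0.0274) and under the authors' factors (0.00235). Pomp was called lower without K36M replicate 2 (0.0203) and under the authors' factors (0.00358).

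Shuttle factors, which carry ubiquitinated proteins to the proteasome, rose in 4 of 7 cases and fell in 0. The share called was 57.1%, and 75% and 83.3% for the p97 and ubiquitin genes given next, against 75.6% of all genes tested. Ubqln4 had the largest change, with 75.0 and 73.1 CPM in the K36M libraries, against 40.5 and 41.8 CPM in the WT libraries, 1.80-fold higher (log2 fold change 0.85 ± 0.0483 SE, adjusted p = 1.29e-11). The abundant Rad23b was 1.31-fold higher (adjusted p = 2.87e-08). Of 8 genes of the p97 segregase, which pulls proteins out of complexes ahead of degradation, 3 rose and 3 fell, with the largest change in Ufd1l, 1.28-fold lower at 48.4 and 48.3 CPM in the K36M libraries, against 61.8 and 62.1 CPM in the WT libraries (adjusted p = 1.26e-06). Of 6 genes of ubiquitin and its activating enzymes 4 rose and 1 fell (2 under the authors' factors and 0 in 5 other settings), with the largest change in Uba6, 1.81-fold higher at 46.5 and 47.1 CPM in the K36M libraries, against 26.5 and 25.1 CPM in the WT libraries (adjusted p = 5.09e-11).

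Complexes of comparable build were set beside the proteasome as a description. The COP9 signalosome and the translation factor eIF3 share the PCI and MPN domains of the lid, and the CCT chaperonin is, like the core, a barrel of different subunits. All 8 CCT genes rose (median log2 fold change 0.32), with an SD between genes of 0.17, and 7 were called higher under the authors' factors. Of 13 eIF3 genes 8 rose and 1 fell (median 0.29, SD 0.25), or 7 and 3 under the authors' factors. Of 9 signalosome genes 4 rose and 4 fell (median -0.0282, SD 0.31). Of the 30 genes of these complexes 83.3% were called, against 75.6% of all genes tested. The lid (median 0.18, SD 0.24) and the core (median 0.11, SD 0.19) lay between these medians. No test of a difference between complexes was made.

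**Figure D4:**
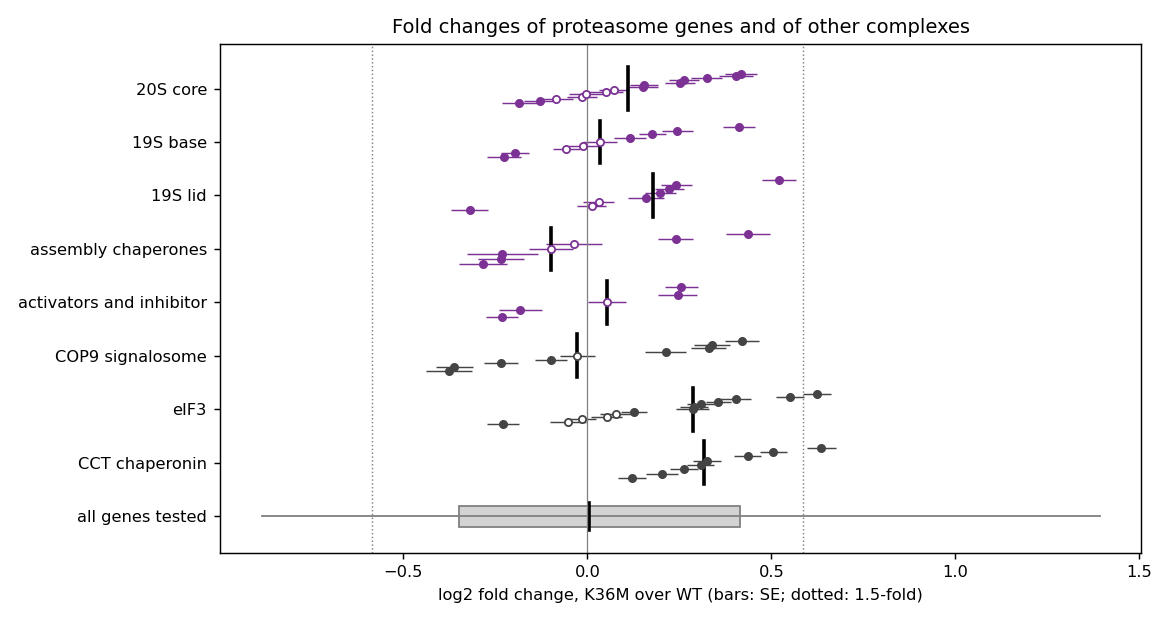
log2 fold change of K36M over WT for each gene (points with SE, open where not called) by proteasome class in purple and for other complexes in dark grey, with black lines at medians; the bottom row gives the 10th, 25th, 50th, 75th and 90th percentiles of all genes tested (-0.89, -0.35, 0.0035, 0.41 and 1.39). All proteasome points lie inside the dotted lines at 1.5-fold.

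Reads shared between near-identical sequences bear on these values. For 44 of the 46 genes the expected count was not whole in at least 1 library, which is how RSEM splits reads that fit more than 1 place, and processed copies of proteasome genes in the genome could take or give reads. In the GENCODE M21 annotation exons of 8 of the 46 genes overlap a gene on the opposite strand, among them Psma4, Psma5, Psmb7, Psmc3, Psmd3, Psmd13 and Psme1, and 3 (Psmb5, Psmd1 and Psmg3) overlap a gene on the same strand. The sources used here do not name a strand setting for the counting, and reads of such pairs could not be told apart. None of the 46 genes is in the authors' deposited table of 594 genes with changes beyond 10-fold.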

How the data were processed

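RNA sequencing libraries of C3H10T1/2 cells with tagged H3.3 K36M (n = 2) or WT (n = 2) were grouped by title. The deposited matrix holds RSEM expected counts per gene symbol, not normalized, which the authors used for EBSeq per the file headers. Per the submitters' processing notes the tools were Bowtie 1.0.0 and RSEM 1.2.12 and the build mm9. The authors' second deposited table gives log2 values for 594 genes, which match log2(1 + count × factor), with 1 factor for each library (largest difference 4.98e-09), and a fold ratio, the K36M over WT ratio of the unlogged means (largest relative difference 4.88e-15). It served only to read the authors' factors (0.553 and 0.915 for K36M, 1.35 and 1.46 for WT).

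The rounded counts entered edgeR 4.0.16 (R 4.3.3) with filterByExpr, TMM and the quasi-likelihood F test (2 residual degrees of freedom, Benjamini-Hochberg), while CPM used unrounded counts. The SE of a log2 fold change is its size over the square root of F. The fit was tested on simulated data. Alternatives used DESeq2 1.42.0, limma 3.58.1 (voom), other scalings and filters, a replicate block, thinned counts and leaving out each library. No library was a copy of another: chi-square per gene between replicates averaged 7.46 in K36M and 3.50 in WT. The 3-count floor covers counting error only.

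The rule's genes, the classes and the other lists were chosen with earlier results of these data known. Values in every library are given for each class's called member with the largest rise and fall, for members not called and for members of special role. Mafg, Ngly1, Shfm1 and Rad23b were named after their values were seen. Lengths for ratios between genes are medians of GENCODE M21 principal transcripts with a CCDS entry.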

Additional observations from a re-analysis of the deposited data

How the results depend on the processing

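Of the 31 proteasome genes called, 23 kept their call and direction under every alternative run (16 higher, 7 lower), and the exceptions were Psma1, Psma2, Psmb1, Psmb11, Psmc2, Psmd13, Psmg3 and Psmf1. No called proteasome gene changed direction, and Psmb11 was not tested at a minimum mean of 5 CPM. The authors' factors shifted the log2 fold changes of all genes tested by a median of -0.0862, and 4 core and 4 base genes were lower instead of 2 and 2, and 8 instead of 5 genes of the other complexes (5 core and 3 base genes were higher instead of 7 and 4). Under total counts 1 core gene was lower, as under upper quartile scaling (1), and 1 activator or inhibitor gene was lower with the DESeq2 Wald test. Leaving out 1 library gave 1 to 2 lower core genes (1 without either WT library) and 1 to 2 lower activator or inhibitor genes (1 without WT replicate 1). No other count for these classes, for the 44 genes together or for all genes moved by over 1.5 times. Counts for smaller groups did: the alpha ring had 1 lower gene instead of 2 under total counts, upper quartile scaling and without either WT library, and at a minimum mean of 5 CPM neither Psmb8 nor Psmb9 was tested.

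Direction changed in genes that were not called in the first place. Under the authors' factors the log2 fold change was -0.0135 for Psma3, -0.0355 for Psma5, -0.0529 for Psmc4, -0.0743 for Psmd7, -0.0554 for Psmd14 and -0.0322 for Psme2. Psmb5 had 0.0025 with the DESeq2 Wald test, 0.0031 with DESeq2 size factors, 0.0182 at a minimum mean of 5 CPM, 0.0456 under total counts and 0.0368 under upper quartile scaling. Psmb7 had 0.0083 at 5 CPM, 0.0117 with thinned counts, 0.0359 under total counts and 0.0267 under upper quartile scaling. Psmc1 had 0.0117 at 5 CPM, 0.0393 under total counts and 0.0302 under upper quartile scaling, and Psmg4 had 0.0134 and 0.0043 under these scalings. With thinned counts Psmd7 had -0.0103 and Psmd14 -0.0382. Leaving out 1 library gave ranges of -0.0204 to 0.0043 for Psmc1, -0.0021 to 0.0687 for Psmc4, -0.057 to 0.0474 for Psmb5, -0.0502 to 0.0108 for Psmb7, -0.0187 to 0.0343 for Psmd7, -0.0864 to 0.0049 for Psmg4 and -0.0162 to 0.1171 for Psme2. The cause was not tested.

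The replicate number did not pair the libraries: deviations from group means of same-numbered libraries had a correlation of 0.000431 over genes tested. With the number as a block 5008 genes were higher and 4796 lower, and all 31 calls were kept. A fit without 1 library assumes that the lone library of its group varies like the others. With 2 libraries a group, a log2 difference had to be well above its SE (0.0363 to 0.165 over the genes of the rule) to be called. The SE is thus not the smallest detectable difference. Psmb2 (-0.0854 ± 0.0463 SE) and Psmd10 (-0.0990 ± 0.0601 SE), for example, differed by more than their SE and were not called.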
